A study of Homo sapiens with 26 samples.

Results

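RNA from MV4-11 cells that had survived 100 nM quizartinib was compared with RNA from untreated MV4-11 cells. The comparison used the 2 survivor libraries and the 2 untreated libraries, which are 4 of the 26 libraries studied and all that the labels put in these groups. The libraries were assigned to their groups by sample title. MV4-11 is an established human acute myeloid leukaemia line of monocytic type that carries the MLL-AF4 fusion and an internal tandem duplication in FLT3. Quizartinib is an inhibitor of the FLT3 kinase. Survivor cells had been exposed to 100 nM quizartinib for 48 h, and the labels place their isolation at 48 h, which leaves unclear whether that time is counted from the start or the end of the exposure. The untreated cells were the parental line, with no vehicle named. Further libraries of the same recovery experiment came from survivors after 13 or 30 days in drug-free medium (2 libraries each). A separate drug experiment supplied cells under 10 nM quizartinib for 48 h (3 libraries), with DMSO, the solvent, for 48 h as control (3 libraries). All cells were grown in IMDM with fetal bovine serum, RNA was extracted with a mirVana kit, and directional libraries were run on a HiSeq instrument. Nothing in the labels ties replicates to separate cultures, and each p therefore measures the spread between these libraries, which may be technical.

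FLT3 is a receptor tyrosine kinase of early myeloid and lymphoid progenitors. The internal tandem duplication makes it signal without its ligand, through STAT5, through RAS and the MAPK cascade, and through PI3K and AKT. STAT5 drives genes such as PIM1 and CISH, the MAPK cascade drives feedback inhibitors such as the SPRY proteins, and AKT keeps FOXO transcription factors out of the nucleus. Cells that live through a kinase inhibitor without a resistance mutation are called drug-tolerant persisters, and in many cancers they cycle slowly or not at all.

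Promoters from 3 gene lists that moved in opposite directions are shown first. A promoter was available for 16 of 20 mitosis, 17 of 20 DNA replication and 10 of 12 MHC class II genes. Among these, with some genes left out, the member with the smallest adjusted p in each list is shown. The member with the next smallest over the 3 lists was added. Sequences are from RefSeq on GRCh38.p14, each from 250 bases before to 50 bases after the start. They are written 5′ to 3′ on the gene's strand. CENPE (a kinetochore motor, chr4:103198294-103198593, minus strand) and BUB1B (a spindle checkpoint kinase, chr15:40160819-40161118, plus strand) stand for mitosis. POLE (the catalytic subunit of DNA polymerase epsilon, chr12:132687293-132687592, minus strand) stands for DNA replication, and HLA-DQB1 (a chain of an antigen-presenting receptor, chr6:32666608-32666907, minus strand) for MHC class II. Capitals mark matches to the letters searched on both strands.
CENPE: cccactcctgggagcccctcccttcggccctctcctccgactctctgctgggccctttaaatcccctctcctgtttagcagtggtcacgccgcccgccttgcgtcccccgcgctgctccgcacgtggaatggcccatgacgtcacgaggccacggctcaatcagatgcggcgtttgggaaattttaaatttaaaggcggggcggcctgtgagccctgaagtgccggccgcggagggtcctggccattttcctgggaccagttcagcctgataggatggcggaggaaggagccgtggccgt
BUB1B: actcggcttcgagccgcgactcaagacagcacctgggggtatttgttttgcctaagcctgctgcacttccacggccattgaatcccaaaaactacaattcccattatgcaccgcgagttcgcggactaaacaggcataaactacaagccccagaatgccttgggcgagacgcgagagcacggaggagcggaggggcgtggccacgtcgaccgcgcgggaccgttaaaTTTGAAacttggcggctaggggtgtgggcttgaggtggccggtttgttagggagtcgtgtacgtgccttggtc
POLE: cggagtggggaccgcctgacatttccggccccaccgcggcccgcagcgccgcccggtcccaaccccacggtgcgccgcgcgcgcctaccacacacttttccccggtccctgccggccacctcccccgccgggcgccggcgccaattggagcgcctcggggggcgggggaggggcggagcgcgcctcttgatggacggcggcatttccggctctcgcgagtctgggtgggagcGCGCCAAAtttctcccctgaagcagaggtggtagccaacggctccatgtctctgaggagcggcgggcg
HLA-DQB1: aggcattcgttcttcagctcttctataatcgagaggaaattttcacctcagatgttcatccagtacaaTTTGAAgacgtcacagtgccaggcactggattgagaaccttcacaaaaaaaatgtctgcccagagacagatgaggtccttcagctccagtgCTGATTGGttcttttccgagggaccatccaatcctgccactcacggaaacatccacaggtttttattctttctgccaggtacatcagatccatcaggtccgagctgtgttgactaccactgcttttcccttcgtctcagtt
In BUB1B the capitals are TTTGAA, the cell cycle homology region, which begins 23 bases before the start. In POLE they are TTTGGCGC, a form of the E2F site, read on the opposite strand as GCGCCAAA. In HLA-DQB1 they are TTTGAA and then CTGATTGG, a form of the Y box that is part of MHC class II promoters. CENPE held no match to these letters. Among the lists, TTTGAA stood in 10 of 16 mitosis promoters (62.5%), 1 of 17 DNA replication promoters (5.88%) and 4 of 10 MHC class II promoters (40%), against 4212 of all 27305 promoters (15.4%). Either of the E2F forms TTTCGCGC and TTTGGCGC stood in 8 of 17 DNA replication promoters (47.1%) and 1 of 16 mitosis promoters (6.25%), against 322 of all promoters (1.18%). CTGATTGG stood in 4 of 10 MHC class II promoters (40%), 4 of 16 mitosis promoters (25%) and 3 of 17 DNA replication promoters (17.6%), against 1136 of all promoters (4.16%). A match describes letters in the window and does not show a bound site.

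The recovery experiment was deposited as FPKM, that is, fragments corrected for transcript length and for library size. The tables hold 64235 entries, of which 19650 are protein-coding in GENCODE 29. No depth is given, but entries for U6 RNA copies of 107 bases took values that were whole multiples (within 0.02) of 1 step per library. This step, the FPKM of 1 fragment, was smallest in untreated replicate 1. It was 1.292 and 1.355 times as large in the survivor libraries and 1.155 times as large in untreated replicate 2. The step depends on depth and also on the scaling between libraries, which is not given, so these ratios are not measured depths. Mitochondrial tRNA entries took between 55.5% and 58.0% of the FPKM sum in 7 libraries and 72.1% in replicate 2 of 13 days. That library stands apart: MKI67, a proliferation marker, was at 46.7 FPKM in replicate 1 and 0.204 FPKM in replicate 2 of 13 days. Since all 8 libraries share 1 estimate of the spread, its distance from replicate 1 widens the error of many genes, and counts are given with all 8 libraries and with the 6 that leave out 13 days. A further limit is that 4146 entries lie on alternate haplotypes or scaffolds, and reads of genes with such copies, among them most MHC genes, can be split or absent from the entry on the chromosome. In bulk RNA, fewer cells of a type and less RNA per cell cannot be told apart.

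The limma test on log2(FPKM + 1) covered 18098 genes that reached 1 FPKM in 2 or more libraries. Called below means an adjusted p (Benjamini-Hochberg, over all 18098) under 0.05. Survivors differed from untreated cells at 2630 genes (14.5%), with 1474 higher (8.14%) and 1156 lower (6.39%). Of these, 1261 rose and 974 fell by at least 2-fold on the log2(FPKM + 1) scale, which understates the change of low genes. With the 6 libraries 4891 of 17362 genes were called (28.2%), with 2678 higher (15.4%) and 2213 lower (12.7%), and 2627 of the 2630 calls were among them. The values of both groups did not overlap at 12199 genes (67.4%), which is most of the genes tested. Among protein-coding genes 2025 of 11765 were called, 1035 higher and 990 lower, and among other entries 605 of 6333, 439 higher and 166 lower. The median log2 fold change was 0.18 over all genes tested. It was 0.31 after scaling to protein-coding genes, where 67.4% of calls were higher, and 0.04 after quantile normalisation, where 46.0% were higher, against 56.0% in the deposited scaling. The calls need both libraries of each group: 19 and 11 genes were called without survivor replicate 1 or 2, and 34 and 36 without untreated replicate 1 or 2. For 1 gene alone, exact permutation of 2 and 2 libraries gives p = 0.33 at best.

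**Figure D1:**
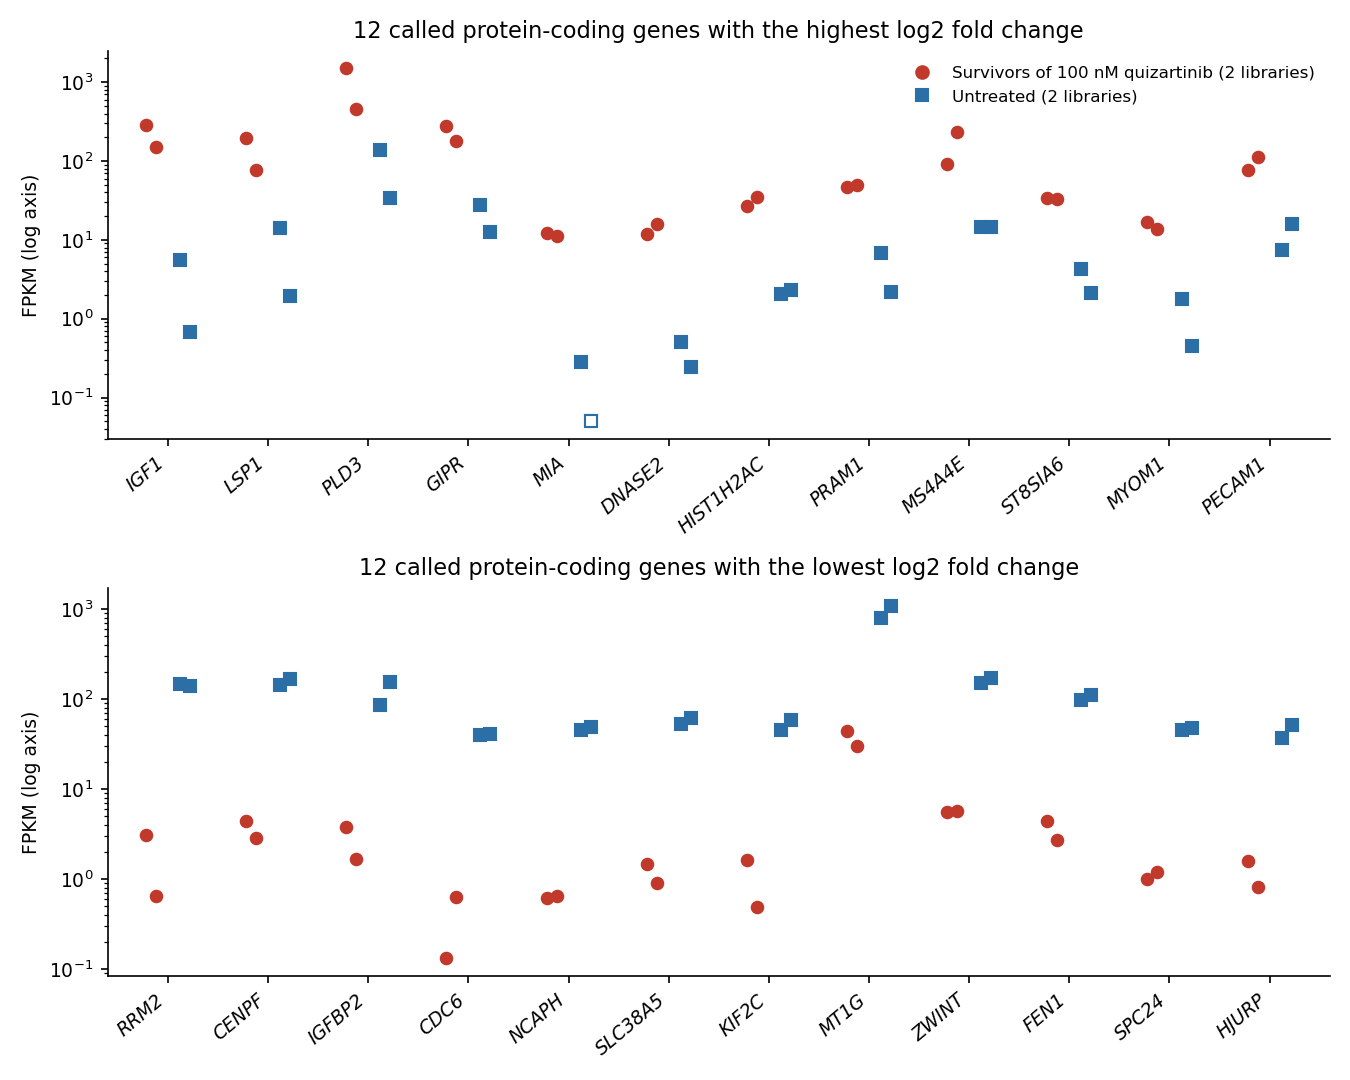
FPKM on a log axis in each library for the 12 called protein-coding genes with the highest (top) and the 12 with the lowest (bottom) log2 fold change; circles are the 2 survivor libraries, squares the 2 untreated libraries, and the open square is MIA, listed at 0 in untreated replicate 2 and drawn at the foot of the axis. The 24 were taken only from called genes whose groups do not overlap, so the lack of overlap here was fixed by that choice.

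The called protein-coding gene with the highest log2 fold change was IGF1, a growth factor that signals through its receptor to PI3K and AKT (chromosome 12, 102395874 to 102481744 on GRCh38). It was at 284 and 151 FPKM in survivors, against 5.57 and 0.671 FPKM in untreated cells. Both survivor libraries lay far above both untreated libraries, with a log2 fold change of 5.97 ± 0.96 (limma adjusted p = 0.0247). GIPR, the receptor for an incretin hormone, was at 278 and 181 FPKM in survivors, against 28.03 and 12.5 FPKM in untreated cells, and rose by 3.51 ± 0.54 on the log2 scale. PLD3, a lysosomal exonuclease, was at 1495 and 458 FPKM in survivors, against 139.9 and 34.4 FPKM in untreated cells. LSP1, an actin-binding protein of leukocytes, was at 197 and 77.7 FPKM in survivors, against 13.9 and 1.92 FPKM in untreated cells. In both of these genes replicate 1 was the higher library in survivors and in untreated cells. Only genes without overlap between the groups were eligible for these highest called genes. DNASE2, the DNase of lysosomes, was at 11.99 and 16.1 FPKM in survivors, against 0.5099 and 0.244 FPKM in untreated cells (3.44 ± 0.35, limma adjusted p = 0.0135). PRAM1, an adaptor of myeloid cells, MS4A4E, the sialyltransferase ST8SIA6, the sarcomere protein MYOM1 and the adhesion protein PECAM1 rose by 3.32, 3.24, 3.11, 3.01 and 2.99 on the log2 scale. MIA, a small secreted protein whose locus has a read-through transcript with RAB4B, was at 12.3 and 11.2 FPKM in survivors, against 0.282 FPKM in untreated replicate 1 and a listed 0 in untreated replicate 2. MYO15B, an unconventional myosin, was at 888 and 803 FPKM in survivors, against 275 and 231 FPKM in untreated cells, and its adjusted p was among the smallest (1.74 ± 0.15, limma adjusted p = 0.00895).

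The called protein-coding gene with the lowest log2 fold change was RRM2, the small subunit of ribonucleotide reductase (chromosome 2, 10120698 to 10131419). It was at 3.07 and 0.6497 FPKM in survivors, against 149 and 139 FPKM in untreated cells, a log2 fold change of -5.80 ± 1.35 (limma adjusted p = 0.0411). Some genes called only with 6 libraries, such as MYBL2 and UBE2C, lay lower still. FEN1, the flap endonuclease of the lagging strand, was at 4.43 and 2.75 FPKM in survivors, against 97.04 and 111 FPKM in untreated cells. NCAPH, a condensin subunit, was at 0.614 and 0.651 FPKM in survivors, against 45.1 and 49.1 FPKM in untreated cells. KIF2C, a microtubule depolymerase, was at 1.64 and 0.492 FPKM in survivors, against 45.8 and 59.5 FPKM in untreated cells. ZWINT and SPC24, both of the kinetochore, fell by 4.60 and 4.52 on the log2 scale, and HJURP, which loads the centromeric histone, fell by 4.37. Among the 12 lowest called genes were also IGFBP2, which binds insulin-like growth factors, the amino acid transporter SLC38A5, and MT1G, a metallothionein. IGFBP2 was at 3.799 and 1.67 FPKM in survivors, against 86.4 and 156 FPKM in untreated cells, so that the growth factor IGF1 was higher and this binding protein lower in survivors. SLC38A5 was at 1.47 and 0.903 FPKM in survivors, against 53.7 and 62.5 FPKM in untreated cells (-4.76 ± 0.71, limma adjusted p = 0.0227). MT1G was at 44.7 and 30.5 FPKM in survivors, against 794 and 1099.6 FPKM in untreated cells. TRMT10C, a subunit of mitochondrial RNase P and a tRNA methyltransferase, was at 10.5 and 12.5 FPKM in survivors, against 48.6 and 50.2 FPKM in untreated cells, with a small error (-2.01 ± 0.18, limma adjusted p = 0.00964).

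FLT3 itself was not called. It was at 284 and 406 FPKM in survivors, against 221 and 218 FPKM in untreated cells, so both survivor libraries were above the untreated ones, by 0.63 ± 0.34 on the log2 scale (limma adjusted p = 0.244, and 0.0686 with 6 libraries). Of 13 FLT3 and cytokine receptor genes tested, 3 rose and none fell, against 8.14% and 6.39% of all genes tested. Their median log2 fold change was 0.63 against 0.18 over all genes. CSF1R, the receptor of macrophage colony-stimulating factor, was at 73.3 and 43.7 FPKM in survivors, against 11.6 and 12.9 FPKM in untreated cells (2.12 ± 0.38, limma adjusted p = 0.0274). CSF2RA, the alpha chain of the GM-CSF receptor, was at 56.2 and 53.9 FPKM in survivors, against 18.7 and 19.5 FPKM in untreated cells (1.48 ± 0.21, limma adjusted p = 0.0213). IL3RA, the alpha chain of the interleukin 3 receptor, was at 60.4 and 45.6 FPKM in survivors, against 21.3 and 22.3 FPKM in untreated cells. All 3 receptors were above untreated cells in both survivor libraries. KIT, the stem cell factor receptor and a close relative of FLT3, was at 42.2 and 22.1 FPKM in survivors, against 3.46 and 2.21 FPKM in untreated cells, and was called only with 6 libraries (3.06 ± 0.82, limma adjusted p = 0.0536, and 0.0117 with 6 libraries). CSF3R, the G-CSF receptor, was at 118 and 125 FPKM in survivors, against 46.6 and 48.8 FPKM in untreated cells, and was called in neither fit.

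In the lists of STAT5 and MAPK output the called genes were all lower. Of 10 STAT5 targets 4 fell and none rose (median -0.76), and with 6 libraries 5 fell. Over all genes tested 6.39% fell with 8 libraries and 12.7% with 6. PIM1, a serine/threonine kinase that STAT5 induces (chromosome 6, 37170203 to 37175426), was at 10.1 and 6.89 FPKM in survivors, against 65.1 and 56.3 FPKM in untreated cells. The survivor libraries were close to each other and well below the untreated ones (-2.72 ± 0.23, limma adjusted p = 0.00741). CISH, a feedback inhibitor of STAT5 signalling, was at 1.62 and 1.997 FPKM in survivors, against 8.69 and 12.1 FPKM in untreated cells (-2.004 ± 0.30, limma adjusted p = 0.0227). OSM, a cytokine, and PIM3, a relative of PIM1, fell by 1.67 and 0.88 on the log2 scale, while BCL2L1, which encodes the survival protein BCL-XL, was at 7.38 and 8.01 FPKM in survivors, against 8.85 and 10.4 FPKM in untreated cells, and was not called. Against 6.39% lower over all genes tested, 4 of 11 genes of MAPK feedback and ETS output fell and none rose (median -1.51). These were the feedback inhibitors SPRY2 and SPRED2, the ETS factor ETV4 and the AP-1 subunit FOSL1. FOSL1 was at 1.85 and 1.82 FPKM in survivors, against 16.8 and 15.6 FPKM in untreated cells (-2.60 ± 0.39, limma adjusted p = 0.0227). SPRED2 was at 0.667 and 1.15 FPKM in survivors, against 7.92 and 6.66 FPKM in untreated cells. In SPRY2 replicates differed within both groups, at 1.16 and 0.0916 FPKM in survivors, against 8.56 and 3.77 FPKM in untreated cells (limma adjusted p = 0.0471).

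MYC, the transcription factor of growth and ribosome production, was at 48.00 and 55.7 FPKM in survivors, against 161 and 161 FPKM in untreated cells. The groups lay far apart, yet the gene was called only with 6 libraries (-1.62 ± 0.43, limma adjusted p = 0.0522, and 0.00343 with 6 libraries), and replicates 1 and 2 of 13 days were at 118 and 44.2 FPKM. Among 9 genes of the MYC network, the MYC antagonists MXD4 and MGA rose and none fell with 8 libraries. Over all genes tested 8.14% rose and 6.39% fell. With 6 libraries 2 of the 9 rose and 2 fell, MYC among those that fell, against 15.4% and 12.7% of all genes. MXD3, of the same family as MXD4, was not called with 8 libraries. MXD4 was at 32.2 and 28.3 FPKM in survivors, against 12.02 and 9.54 FPKM in untreated cells (1.41 ± 0.22, limma adjusted p = 0.0243). MGA was at 16.1 and 21.5 FPKM in survivors, against 8.85 and 7.52 FPKM in untreated cells. After quantile normalisation 1 of the 9 rose and 2 fell. Ribosome biogenesis genes were lower: of 16, 10 fell and none rose, and 14 fell with 6 libraries (median -1.47). Over all genes tested 6.39% fell with 8 libraries and 12.7% with 6. NOP56, a core protein of box C/D nucleolar particles, was at 139 and 148 FPKM in survivors, against 562 and 633 FPKM in untreated cells (-2.05 ± 0.36, limma adjusted p = 0.0262). NOP16, a nucleolar protein, was at 20.9 and 25.7 FPKM in survivors, against 128 and 143 FPKM in untreated cells. RRS1, which assembles the large subunit, was at 14.97 and 18.4 FPKM in survivors, against 61.4 and 62.6 FPKM in untreated cells. NOP58, the partner of NOP56, fell by 1.68 on the log2 scale. Genes of the ribosomal proteins themselves lay near the median of all genes. Of 20 tested none was called with 8 libraries (4 were higher at an unadjusted limma p under 0.05), against 14.5% of all genes. With 6 libraries 4 of the 20 were called higher, against 15.4% of all genes. Their median of 0.21 was close to that of all genes. RPS3, of the small subunit, was at 7045 and 5904 FPKM in survivors, against 3974 and 4205 FPKM in untreated cells. After scaling to protein-coding genes 3 of these 20 rose, and after quantile normalisation 1 did.

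Mitosis and DNA replication genes held the lowest medians of all lists. Every one of 20 mitosis genes was lower in both survivor libraries than in both untreated ones, with a median of -3.95. Groups did not overlap, in either direction, at 67.4% of all genes tested. Of the 20 mitosis genes 11 fell with 8 libraries and 20 with 6, against 6.39% and 12.7% of all genes tested. MKI67 was at 2.44 and 1.16 FPKM in survivors, against 95.4 and 80.2 FPKM in untreated cells. Its error was wide with 8 libraries (-5.02 ± 1.52, limma adjusted p = 0.0708) and it was called with 6 (limma adjusted p = 0.00132). CENPF, of the kinetochore, was at 4.47 and 2.87 FPKM in survivors, against 143 and 168 FPKM in untreated cells (-5.08 ± 1.07, limma adjusted p = 0.0341). BUB1B, whose promoter is shown above, was at 3.68 and 5.83 FPKM in survivors, against 94.3 and 89.96 FPKM in untreated cells. CENPE was at 1.78 and 1.47 FPKM in survivors, against 33.1 and 28.7 FPKM in untreated cells (-3.60 ± 0.38, limma adjusted p = 0.01403). Their 4 libraries split cleanly into low survivors and high untreated cells. AURKB, the kinase of the chromosomal passenger complex, was at 1.95 and 0.838 FPKM in survivors, against 80.7 and 79.3 FPKM in untreated cells. CDC20, an activator of the anaphase-promoting complex, was at 2.16 and 0.994 FPKM in survivors, against 79.7 and 102 FPKM in untreated cells. UBE2C, the ubiquitin-conjugating enzyme of that complex, was at 5.28 and 1.44 FPKM in survivors, against 228 and 245 FPKM in untreated cells. These 3 were called only with 6 libraries.

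Of 20 DNA replication genes 9 fell with 8 libraries and 20 with 6 (median -3.12), against 6.39% and 12.7% of all genes tested. In all 20 the groups did not overlap, as in 67.4% of all genes tested. CDC6, which loads the replicative helicase (chromosome 17, 40287633 to 40304657), was at 0.132 and 0.626 FPKM in survivors, against 40.1 and 41.1 FPKM in untreated cells (-4.94 ± 1.16, limma adjusted p = 0.0419). POLE was at 15.6 and 17.4 FPKM in survivors, against 97.3 and 95.9 FPKM in untreated cells, a smaller log2 fold change of -2.48 ± 0.43. Neither gene was above 20 FPKM in survivors. CDC45, part of the active helicase, was at 0.132 and 0.534 FPKM in survivors, against 50.1 and 54.4 FPKM in untreated cells. TYMS, the thymidylate synthase, was at 4.79 and 4.04 FPKM in survivors, against 157 and 152 FPKM in untreated cells. Both were called only with 6 libraries. Of 15 E2F factors and their partners, 3 fell and 1 rose with 8 libraries, and 8 fell with 6 (median -1.02). After quantile normalisation 4 fell and none rose. E2F8, a repressor of the family that is itself made in S phase, was at 0.0835 and 0.0149 FPKM in survivors, against 7.35 and 7.54 FPKM in untreated cells (-3.01 ± 0.56, limma adjusted p = 0.0283). MYBL2, which activates mitotic genes, was at 0.302 and 0.112 FPKM in survivors, against 77.2 and 71.9 FPKM in untreated cells, a log2 fold change of -5.97 ± 1.65 that was called only with 6 libraries (limma adjusted p = 0.0579, and 8.69e-04 with 6). E2F1, an activator of replication genes, was at 0.884 and 1.72 FPKM in survivors, against 23.3 and 26.8 FPKM in untreated cells. FOXM1, an activator of mitosis genes, was at 4.89 and 3.096 FPKM in survivors, against 53.3 and 55.01 FPKM in untreated cells. Both were called only with 6 libraries.

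Of 13 cyclins, their kinases and inhibitors 5 fell and none rose (median -1.22), against 6.39% and 8.14% of all genes tested. CDK4, the kinase of D-type cyclins, was at 43.7 and 59.5 FPKM in survivors, against 156 and 212 FPKM in untreated cells (-1.81 ± 0.38, limma adjusted p = 0.0336). CCNE1, cyclin E1, was at 3.65 and 7.25 FPKM in survivors, against 30.2 and 39.8 FPKM in untreated cells. CDK2, its kinase, was at 9.52 and 7.78 FPKM in survivors, against 48.1 and 45.7 FPKM in untreated cells. The inhibitor CDKN1A, which encodes p21, was at 16.1 and 2.997 FPKM in survivors, against 38.8 and 25.6 FPKM in untreated cells, with both survivor libraries the lower, and was not called (-1.98 ± 1.04, limma adjusted p = 0.225).

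Histone genes gave a mixed picture and were looked at as a family after their values were seen. Most histone genes are made in S phase as messages that end in a stem-loop, and some can also be made as polyadenylated messages outside it. Of 53 protein-coding histone genes of the HIST clusters tested, 19 fell and 3 rose with 8 libraries, and 27 and 4 with 6. Over all genes tested 6.39% fell and 8.14% rose with 8 libraries, and 12.7% and 15.4% with 6. The share of histone genes that rose was thus below that of all genes. Of the 53, 9 were listed at 0 in both survivor libraries. HIST1H3B was listed at 0 in both survivor libraries, against 11.6 and 12.3 FPKM in untreated cells. HIST1H1B, a linker histone, was at 0.815 and 0.664 FPKM in survivors, against 8.83 and 10.1 FPKM in untreated cells. HIST1H4C, an H4 gene, was at 0.746 and 0.196 FPKM in survivors, against 8.52 and 8.34 FPKM in untreated cells. The 3 that rose went the other way. HIST1H2AC, an H2A gene, was at 26.9 and 35.2 FPKM in survivors, against 2.03 and 2.32 FPKM in untreated cells (3.32 ± 0.34, limma adjusted p = 0.0135). HIST1H2BK, an H2B gene, was at 28.2 and 30.8 FPKM in survivors, against 5.26 and 5.21 FPKM in untreated cells (2.29 ± 0.26, limma adjusted p = 0.0158). HIST3H2A, the last of the 3, was at 21.4 and 13.97 FPKM in survivors, against 7.55 and 6.43 FPKM in untreated cells. In the drug experiment all 53 fell, against 30.4% of all genes tested there. HIST1H2AC was among them (113 ± 5.77 CPM with 10 nM quizartinib, against 248 ± 62.2 CPM with DMSO, SD, n = 3 each). The recovery libraries are labelled mRNA, and how RNA was selected in the drug experiment is not given in the sources used here; its part in the opposite directions was not tested. Histone genes are near-identical copies, so single values are uncertain.

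**Figure D2:**
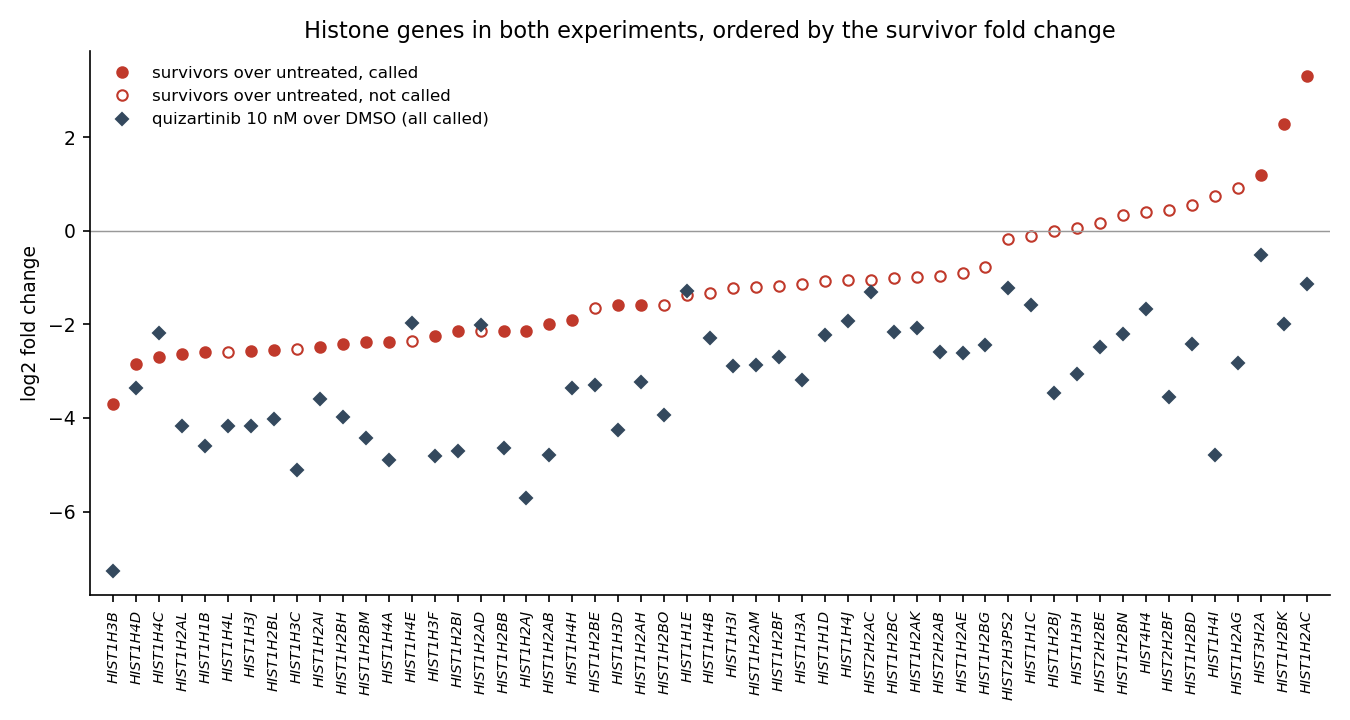
Log2 fold change of 53 histone genes, ordered by survivors over untreated (circles, on log2(FPKM + 1), filled where called), with quizartinib 10 nM over DMSO as diamonds, from counts. In survivors 19 fell and 3 rose, against 6.39% and 8.14% of all genes tested. In the drug experiment all 53 fell, against 30.4% of all genes tested there.

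Sterol and fatty acid synthesis was the metabolic list with the lowest median. Of 18 genes 12 fell and none rose (median -1.55), against 6.39% and 8.14% of all genes tested. SCD, which makes oleate from stearate (chromosome 10, 100347124 to 100364834), was at 10.9 and 11.6 FPKM in survivors, against 95.2 and 143 FPKM in untreated cells. Its log2 fold change of -3.26 ± 0.25 had the smallest adjusted p of all protein-coding genes (limma adjusted p = 0.00586). SQLE, squalene epoxidase, was at 14.3 and 10.5 FPKM in survivors, against 71.2 and 68.1 FPKM in untreated cells (-2.41 ± 0.21, limma adjusted p = 0.00895). Both survivor libraries of these genes lay far below both untreated libraries. FASN, the fatty acid synthase, was at 36.4 and 28.2 FPKM in survivors, against 230.2 and 233 FPKM in untreated cells. DHCR7, the last enzyme of cholesterol synthesis, was at 1.102 and 0.453 FPKM in survivors, against 11.2 and 24.5 FPKM in untreated cells.

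Part of the list of serine, folate and ATF4 target genes was lower. Of 18, 4 fell and none rose (median -0.63), against 6.39% and 8.14% of all genes tested. PHGDH, the first enzyme of serine synthesis, was at 0.389 and 1.08 FPKM in survivors, against 25.97 and 37.9 FPKM in untreated cells. PSAT1, the next enzyme, was at 7.51 and 5.89 FPKM in survivors, against 75.9 and 75.1 FPKM in untreated cells. PHGDH thus fell by 4.25 and PSAT1 by 3.32 on the log2 scale. SLC7A5, the transporter of large neutral amino acids, was at 6.69 and 6.65 FPKM in survivors, against 77.6 and 83.6 FPKM in untreated cells (-3.41 ± 0.57, limma adjusted p = 0.0254). Of 15 glycolysis genes 5 fell (median -0.67), against 6.39% of all genes tested, and 3 of the 15 fell under either of the other scalings. LDHA, which forms lactate, was at 149 and 153 FPKM in survivors, against 572 and 586 FPKM in untreated cells (-1.93 ± 0.38, limma adjusted p = 0.0307). PGAM1, a mutase of lower glycolysis, was at 66.3 and 66.6 FPKM in survivors, against 171 and 199 FPKM in untreated cells. TPI1, the triose phosphate isomerase, was at 348 and 264 FPKM in survivors, against 687 and 769 FPKM in untreated cells. All of these were lower in both survivor libraries, and so was PFKP, which had the smallest change of those named. PFKP, a phosphofructokinase, was at 50.6 and 50.7 FPKM in survivors, against 107 and 97.4 FPKM in untreated cells.

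None of 16 nuclear genes of the respiratory chain (median -0.48) was called with 8 libraries, against 14.5% of all genes tested. At an unadjusted limma p under 0.05, 5 of the 16 were lower and 1 higher with 8 libraries. With 6 libraries 6 were called lower and 1 higher, against 12.7% and 15.4% of all genes tested. CYCS, cytochrome c, was at 83.2 and 71.6 FPKM in survivors, against 199.6 and 229 FPKM in untreated cells (limma adjusted p = 0.0562, and 0.0119 with 6 libraries). Mitochondrially encoded genes were lower in both survivor libraries at all 13. Groups did not overlap, in either direction, at 67.4% of all genes tested. Of the 13, 4 fell with 8 libraries, 9 with 6 and 2 after scaling to protein-coding genes. Over all genes tested 6.39% fell with 8 libraries and 12.7% with 6. MT-CO2, a subunit of cytochrome c oxidase, was at 5716 and 5413 FPKM in survivors, against 11349.9 and 10736 FPKM in untreated cells (-0.99 ± 0.21, limma adjusted p = 0.0334). MT-ATP6, of the ATP synthase, was at 5929 and 6609 FPKM in survivors, against 12385 and 12798 FPKM in untreated cells. In the drug experiment 1 of 13 rose and 1 fell, against 29.0% and 30.4% of all genes tested there. MT-CO2 was at 2197 ± 203 CPM with 10 nM quizartinib, against 2332 ± 369 CPM with DMSO (SD, n = 3 each).

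**Figure D3:**
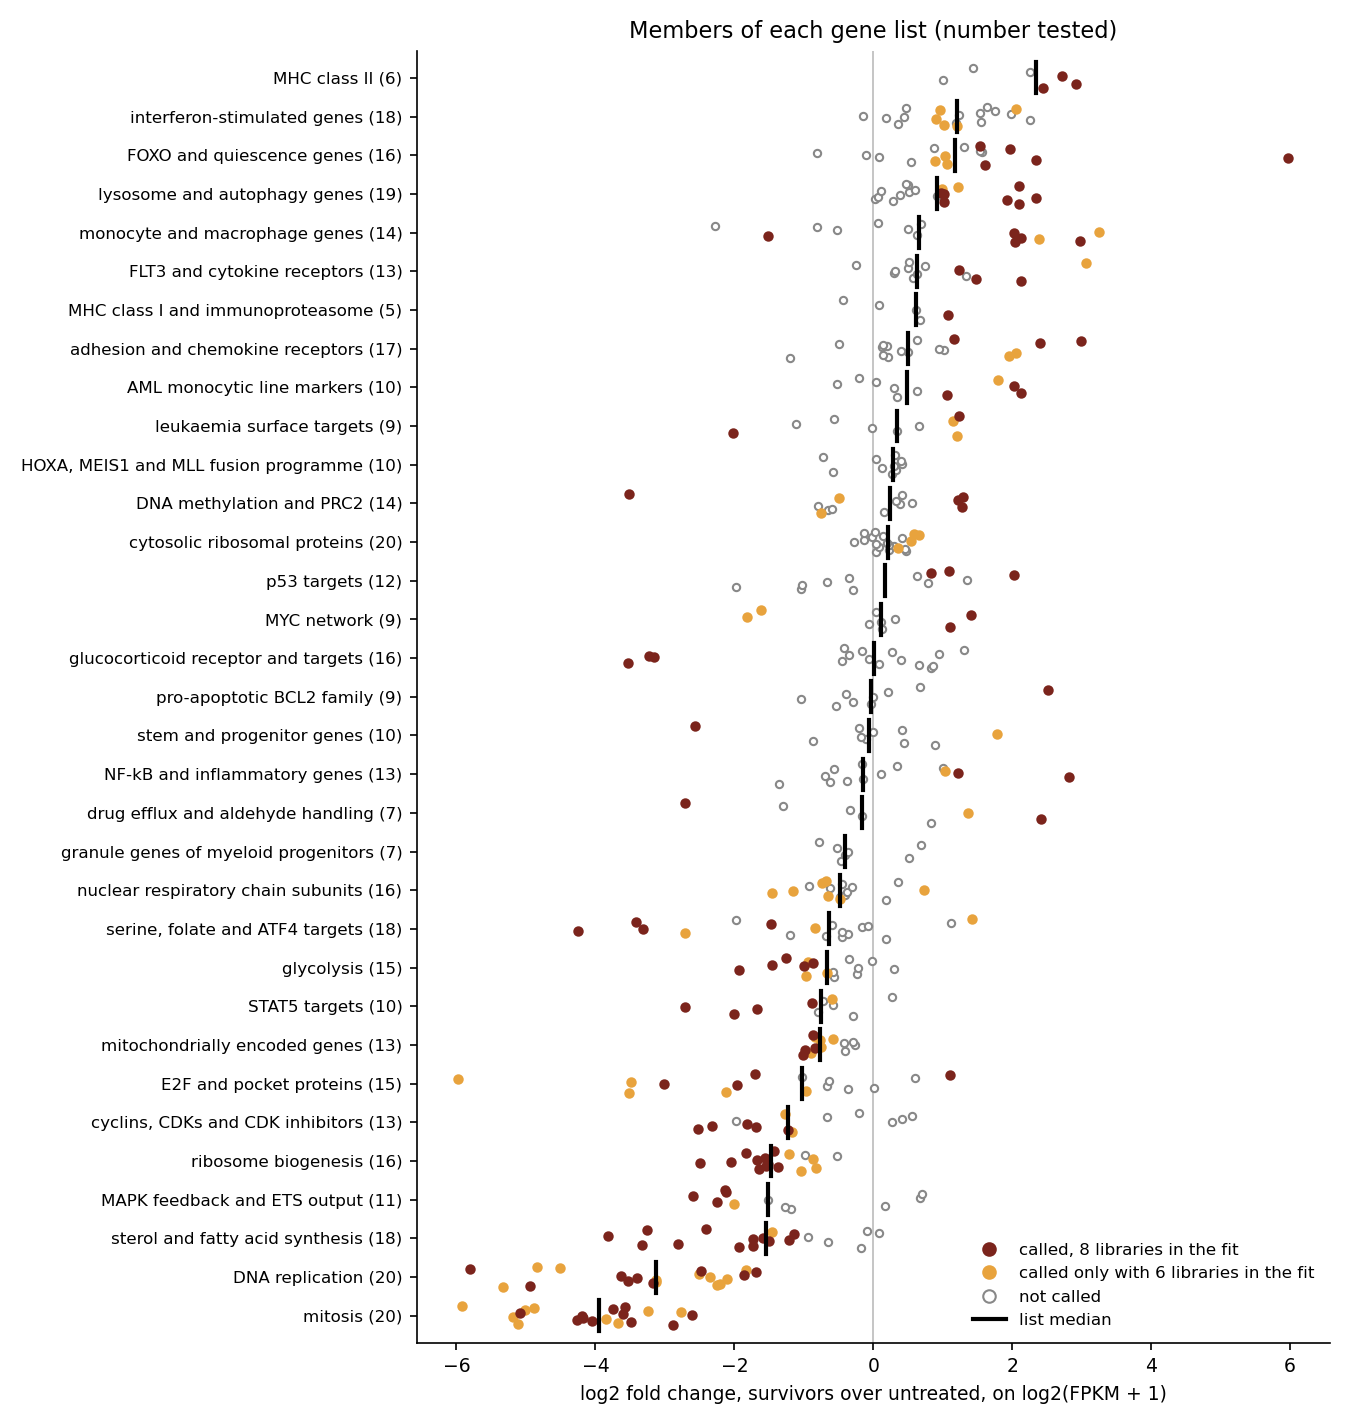
Log2 fold change of survivors over untreated, on log2(FPKM + 1), for each member of the lists with at least 5 tested genes, ordered by list median (black bar); dark points are called with 8 libraries, orange points with 6 libraries only, and open points in neither. Mitosis (median -3.95) and DNA replication (-3.12) lie lowest, and MHC class II (2.34) highest.

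Called FOXO and quiescence genes were all higher. Over all genes tested 8.14% rose with 8 libraries and 15.4% with 6. Of 16 in this list, 5 rose and none fell (median 1.18), with 8 called higher with 6 libraries and 3 after quantile normalisation. Besides IGF1, which sits in this list, BCL6, a transcriptional repressor, was at 3.64 and 3.37 FPKM in survivors, against 0.374 and 0.575 FPKM in untreated cells (1.61 ± 0.26, limma adjusted p = 0.0248). GABARAPL1, of the autophagosome, was at 18.2 and 18.3 FPKM in survivors, against 4.21 and 1.77 FPKM in untreated cells. PIK3IP1, an inhibitor of PI3K, was at 6.503 and 5.98 FPKM in survivors, against 0.887 and 0.822 FPKM in untreated cells. Of 12 p53 targets 3 rose and none fell, against 8.14% and 6.39% of all genes tested, and 1 rose after quantile normalisation. Their median of 0.17 was close to the 0.18 of all genes, and 6 of the 12 had a negative log2 fold change. TP53INP1, a stress protein, was at 17.7 and 11.6 FPKM in survivors, against 3.14 and 2.41 FPKM in untreated cells (2.03 ± 0.46, limma adjusted p = 0.0395). ZMAT3, an RNA-binding protein, was at 7.95 and 6.59 FPKM in survivors, against 3.45 and 2.36 FPKM in untreated cells. RRM2B, the p53-induced relative of RRM2, was at 115 and 104 FPKM in survivors, against 60.2 and 29.6 FPKM in untreated cells, so that in survivors it stood above RRM2 in FPKM, but it was not called (limma adjusted p = 0.258).

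Of 9 pro-apoptotic and 4 anti-apoptotic BCL2 relatives tested, 1 gene was called, against 14.5% of all genes tested. After quantile normalisation none was called. BMF, a BH3-only protein that promotes death, was at 60.05 and 61.7 FPKM in survivors, against 10.9 and 8.72 FPKM in untreated cells (2.52 ± 0.64, limma adjusted p = 0.0487). Its replicates agreed closely in survivors. BCL2L11, which encodes the BH3-only protein BIM, was at 15.6 and 8.47 FPKM in survivors, against 16.7 and 7.85 FPKM in untreated cells, with overlapping groups and a log2 fold change of 0.00 ± 0.50. PMAIP1, the BH3-only protein NOXA, was at 95.3 and 54.3 FPKM in survivors, against 53.96 and 36.9 FPKM in untreated cells. BBC3, the BH3-only protein PUMA, was at 6.54 and 2.52 FPKM in survivors, against 8.76 and 10.4 FPKM in untreated cells. Neither was called (limma adjusted p = 0.281 and 0.151). The survival genes BCL2 and MCL1 were not called either. BCL2 was at 26.6 and 31.05 FPKM in survivors, against 24.6 and 20.5 FPKM in untreated cells (0.34 ± 0.19, limma adjusted p = 0.251). MCL1 was at 176 and 137 FPKM in survivors, against 102 and 125 FPKM in untreated cells (0.46 ± 0.50, limma adjusted p = 0.545). In the drug experiment BCL2 fell, to 181 ± 15.2 CPM with 10 nM quizartinib, against 279.9 ± 15.2 CPM with DMSO (SD, n = 3 each; edgeR adjusted p = 0.00187).

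MHC class II had the highest list median, though only 6 of its 12 genes could be tested. The other 6 chromosomal entries were listed at 0 in all 8 libraries and have copies on alternate haplotypes. Summed over all copies, some of these genes were still listed at 0 in all 8 libraries, so their levels cannot be read here. Of the 6 genes tested, 3 rose (median 2.34), against 8.14% of all genes tested. CIITA, the master activator of these genes and free of such copies (chromosome 16, 10866222 to 10943021), was at 34.2 and 18.6 FPKM in survivors, against 4.73 and 1.11 FPKM in untreated cells (2.92 ± 0.53, limma adjusted p = 0.0274). CD74, the invariant chain, was at 2143 and 841 FPKM in survivors, against 318 and 191 FPKM in untreated cells (2.44 ± 0.46, limma adjusted p = 0.0284). Replicate 1 was the higher survivor library in both, and both survivor libraries were above the untreated ones. HLA-DQB1, whose promoter is shown above, was at 52.03 and 22.3 FPKM in survivors, against 3.13 and 5.95 FPKM in untreated cells. HLA-DRB1 was at 19.95 and 3.89 FPKM in survivors, against 1.83 and 0.604 FPKM in untreated cells, an entry whose reads can be split over copies, and was not called (limma adjusted p = 0.0894). In the drug experiment all 11 class II genes measured rose, against 29.0% of all genes tested there. CIITA was at 94.4 ± 18.3 CPM with 10 nM quizartinib, against 13.4 ± 3.41 CPM with DMSO (SD, n = 3 each).

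None of 18 interferon-stimulated genes was called with 8 libraries, although 16 did not overlap between groups, as did 67.4% of all genes tested, and the median was 1.20. At an unadjusted limma p under 0.05, 6 were higher and none lower. With 6 libraries 5 were called higher, against 15.4% of all genes, and after scaling to protein-coding genes 3. With 8 libraries 14.5% of all genes were called. RSAD2, an antiviral enzyme, was at 5.73 and 11.96 FPKM in survivors, against 1.28 and 1.202 FPKM in untreated cells (limma adjusted p = 0.0591, and 0.0289 with 6 libraries). MX2, an antiviral GTPase, was at 14.8 and 15.4 FPKM in survivors, against 2.62 and 3.53 FPKM in untreated cells. Of 13 NF-kB and inflammatory genes 2 rose (median -0.14), IL18 and NFKB2, against 8.14% of all genes tested. IL18, a cytokine of the interleukin 1 family, was at 63.2 and 41.4 FPKM in survivors, against 6.33 and 6.41 FPKM in untreated cells (2.82 ± 0.39, limma adjusted p = 0.0203). NFKB2, an NF-kB subunit, was at 11.8 and 12.1 FPKM in survivors, against 4.82 and 4.32 FPKM in untreated cells, and after quantile normalisation 1 gene rose. The chemokine CCL2 was listed at 0 in both survivor libraries, against 3.802 and 0.3597 FPKM in untreated cells, and was not called.

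Monocyte and macrophage genes did not move as a block. Of 14, 4 rose and 1 fell (median 0.66), against 8.14% and 6.39% of all genes tested. CD68, a glycoprotein of macrophage lysosomes, was at 365 and 298 FPKM in survivors, against 56.2 and 29.97 FPKM in untreated cells (2.97 ± 0.38, limma adjusted p = 0.0191). ITGAM, the integrin chain CD11b, was at 6.11 and 5.92 FPKM in survivors, against 0.697 and 0.759 FPKM in untreated cells (2.02 ± 0.22, limma adjusted p = 0.0144). Its relative ITGAX, CD11c, was at 21.3 and 46.2 FPKM in survivors, against 3.52 and 1.59 FPKM in untreated cells. ITGAX and CD86, a costimulatory ligand at 7.99 and 6.11 FPKM in survivors, against 0.486 and 0.591 FPKM in untreated cells, were called only with 6 libraries. S100A9, a calcium-binding protein of neutrophils and monocytes, was at 2.66 and 0.243 FPKM in survivors, against 12.6 and 6.83 FPKM in untreated cells, and was not called. None of 7 progenitor granule genes was called, against 14.5% of all genes tested, and none passed an unadjusted limma p under 0.05. MPO, the granule peroxidase, was at 2.23 and 1.44 FPKM in survivors, against 2.61 and 3.47 FPKM in untreated cells. MS4A3, a marker of granulocyte and monocyte progenitors, was at 869 and 1190.0 FPKM in survivors, against 553 and 717 FPKM in untreated cells (limma adjusted p = 0.2802).

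Lysosome and autophagy genes were above untreated cells in mean at all 19 tested, with a median of 0.92 against 0.18 over all genes. Of the 19, 7 rose and none fell, against 8.14% and 6.39% of all genes tested. CTSB, a lysosomal protease, was at 269 and 189.8 FPKM in survivors, against 62.6 and 43.2 FPKM in untreated cells (2.10 ± 0.25, limma adjusted p = 0.0179). CTSS, a protease that trims the invariant chain CD74, was at 80.2 and 90.2 FPKM in survivors, against 19.3 and 24.3 FPKM in untreated cells. TFEB, a transcription factor of lysosome genes, was at 29.6 and 21.1 FPKM in survivors, against 5.13 and 4.99 FPKM in untreated cells (2.10 ± 0.36, limma adjusted p = 0.0256). Of 17 adhesion and chemokine receptor genes 3 rose and none fell (median 0.49), against 8.14% and 6.39% of all genes tested. After scaling to protein-coding genes 5 of the 17 rose. ITGB7, an integrin chain, was at 167 and 130.2 FPKM in survivors, against 29.05 and 25.5 FPKM in untreated cells (2.39 ± 0.45, limma adjusted p = 0.0286). CD44, the hyaluronan receptor, was at 744 and 872 FPKM in survivors, against 239 and 180.1 FPKM in untreated cells, and missed the threshold narrowly (limma adjusted p = 0.0502, and 0.0358 with 6 libraries). CXCR4, which holds leukaemia cells in marrow, was at 65.5 and 78.6 FPKM in survivors, against 73.7 and 39.6 FPKM in untreated cells, with overlapping groups and no call (limma adjusted p = 0.3998).

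None of 10 HOXA, MEIS1 and MLL fusion genes was called, against 14.5% of all genes tested (1 was lower at an unadjusted limma p under 0.05; median 0.29), with KMT2A, which encodes MLL, at 22.5 and 22.3 FPKM in survivors, against 19.6 and 13.9 FPKM in untreated cells. Its cofactor MEN1 was at 16.7 and 12.01 FPKM in survivors, against 24.5 and 23.5 FPKM in untreated cells. Of 10 stem and progenitor genes WT1 alone was called with 8 libraries, against 14.5% of all genes tested. WT1, a transcription factor high in many acute leukaemias, was at 1.36 and 1.36 FPKM in survivors, against 12.3 and 13.8 FPKM in untreated cells (-2.57 ± 0.29, limma adjusted p = 0.01501). MSI2, an RNA-binding protein of stem cells, was at 55.4 and 72.5 FPKM in survivors, against 17.2 and 18.5 FPKM in untreated cells, called higher with 6 libraries only (limma adjusted p = 0.0587, and 0.0123 with 6). Among 9 surface targets IL3RA rose and CD276, an immune checkpoint ligand, fell, against 8.14% and 6.39% of all genes tested. CD276 was at 5.13 and 5.796 FPKM in survivors, against 31.5 and 19.95 FPKM in untreated cells (-2.02 ± 0.40, limma adjusted p = 0.0307).

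The glucocorticoid receptor gene NR3C1 was at 17.3 and 19.2 FPKM in survivors, against 24.01 and 23.1 FPKM in untreated cells, and was not called (-0.35 ± 0.18, limma adjusted p = 0.2097). Of 16 genes of the receptor and its targets 3 fell and none rose (median 0.01), against 6.39% and 8.14% of all genes tested. FKBP4, a chaperone of steroid receptors, was at 8.64 and 10.2 FPKM in survivors, against 118 and 121 FPKM in untreated cells (-3.54 ± 0.57, limma adjusted p = 0.0247). MT2A, a metallothionein, was at 32.3 and 30.1 FPKM in survivors, against 238 and 377 FPKM in untreated cells. Its relative MT1X was at 22.95 and 13.2 FPKM in survivors, against 157 and 171 FPKM in untreated cells. In both metallothioneins the survivor libraries lay far below the untreated ones (limma adjusted p = 0.0256 and 0.0264). TSC22D3, a classical target that also sits in the FOXO list, was at 91.3 and 76.6 FPKM in survivors, against 22.4 and 49.2 FPKM in untreated cells, and was not called.

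Of 7 genes of drug efflux, aldehyde handling and bypass signalling that were tested, ALDH2 rose and PIM1 fell (median -0.16). Over all genes tested 8.14% rose and 6.39% fell. ALDH2, the mitochondrial aldehyde dehydrogenase, was at 8.94 and 9.96 FPKM in survivors, against 0.733 and 1.23 FPKM in untreated cells (2.41 ± 0.47, limma adjusted p = 0.0302). AXL, a receptor kinase, was at 2.26 and 2.98 FPKM in survivors, against 0.3698 and 0.427 FPKM in untreated cells. Its ligand GAS6 was at 30.9 and 15.8 FPKM in survivors, against 59.8 and 52.4 FPKM in untreated cells. AXL was called only with 6 libraries (limma adjusted p = 0.0663, and 0.0164 with 6), and GAS6 in neither fit. Of 14 genes of DNA methylation and the Polycomb complex PRC2 3 rose and 1 fell, against 8.14% and 6.39% of all genes tested. After quantile normalisation 2 of the 14 rose. UHRF1, which brings DNMT1 to replicating DNA, was at 5.03 and 6.103 FPKM in survivors, against 70.3 and 78.3 FPKM in untreated cells (-3.52 ± 0.59, limma adjusted p = 0.0254). TET2, which oxidises 5-methylcytosine, was at 7.96 and 8.05 FPKM in survivors, against 2.82 and 2.57 FPKM in untreated cells. EZH1, a PRC2 methyltransferase, was at 25.8 and 27.4 FPKM in survivors, against 10.6 and 10.2 FPKM in untreated cells. These moved up, and so did KDM6B. KDM6B, an H3K27 demethylase, was at 22.8 and 22.5 FPKM in survivors, against 8.82 and 9.53 FPKM in untreated cells.

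Markers of the line were present. Of 10 markers of a monocytic acute leukaemia line all 10 were tested and 3 rose (CD4, CSF1R and ITGAM), against 8.14% of all genes tested. The 10 summed to 1568 and 2299 FPKM in survivors, against 1708 and 2081 FPKM in untreated cells. Markers of other cell types were then summed over each list. The erythroid and megakaryocyte markers were at 6.39 and 16.6 FPKM in survivors, against 8.00 and 14.7 FPKM in untreated cells. B cell markers summed to 3.27 and 5.43 FPKM in survivors, against 1.52 and 2.14 FPKM in untreated cells. T and NK cell markers summed to 29.4 and 43.5 FPKM in survivors, against 23.6 and 39.8 FPKM in untreated cells, and fibroblast and epithelial markers to 2.10 and 9.46 FPKM in survivors, against 2.50 and 8.24 FPKM in untreated cells. B cell markers are the list whose groups did not overlap, and their part in the results was not tested. None of the 6 of these markers that were tested was called, against 14.5% of all genes tested. HBB, HBA1, HBA2, PF4, PPBP and COL3A1 were listed at 0 in all 8 libraries. NKG7, of NK cells, was at 27.02 and 41.2 FPKM in survivors, against 22.96 and 38.6 FPKM in untreated cells, with overlapping groups, and made up most of the T and NK cell sum.

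Levels after drug removal stand beside these values in the plot of the recovery experiment, with no test because the groups share their untreated libraries. MKI67 was at 95.4 and 80.2 FPKM in untreated cells, 2.44 and 1.16 FPKM in survivors, 46.7 and 0.204 FPKM at 13 days and 72.99 and 94.1 FPKM at 30 days. At 13 days its replicate 1 lay between survivors and untreated cells and its replicate 2 lay below both survivor libraries. IGF1 was at 5.57 and 0.671, 284 and 151, 49.1 and 192 and 6.46 and 1.31 FPKM in the same order, and CIITA at 4.73 and 1.11, 34.2 and 18.6, 14.2 and 21.02 and 2.47 and 2.76 FPKM. Both 30 day libraries were in or near the untreated range for these genes. PIM1 was at 65.1 and 56.3, 10.1 and 6.89, 13.2 and 11.02 and 98.7 and 86.7 FPKM, so that both 13 day libraries stayed close to survivors. SCD was at 95.2 and 143, 10.9 and 11.6, 20.9 and 16.6 and 188 and 242 FPKM, and DHCR7 at 11.2 and 24.5, 1.102 and 0.453, 4.41 and 1.297 and 45.1 and 98.8 FPKM. Both 30 day libraries of these genes of lipid synthesis lay above both untreated libraries.

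**Figure D4:**
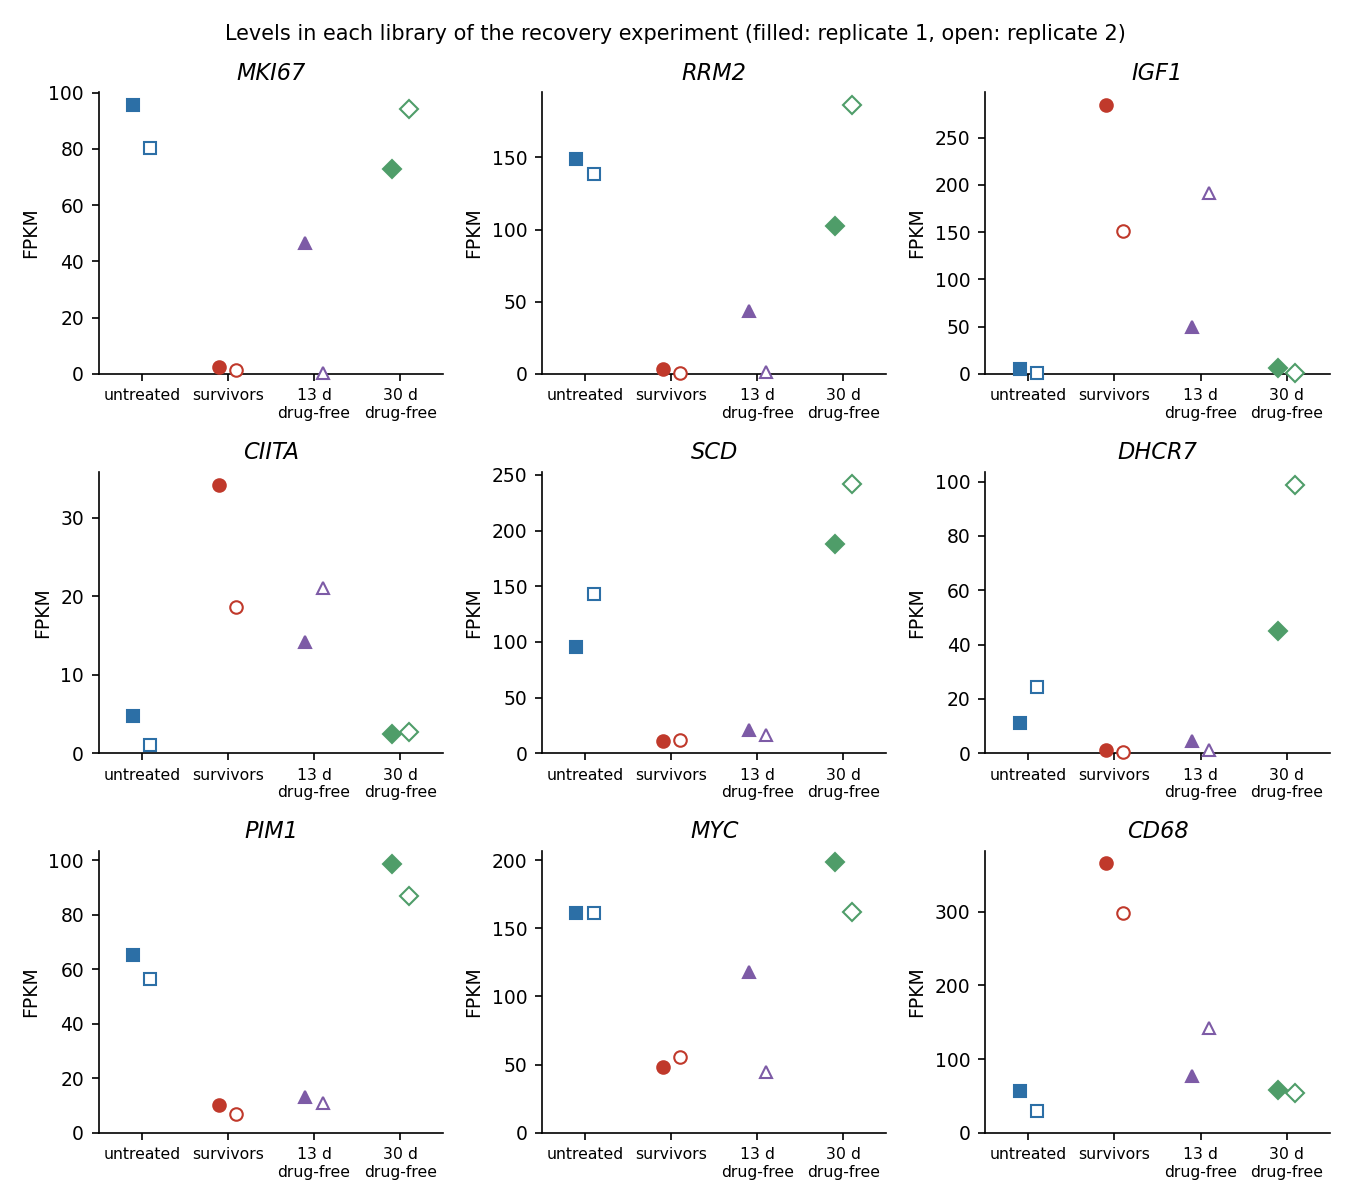
FPKM of 9 genes in each library of the recovery experiment, in the order untreated, survivors of 100 nM quizartinib, 13 days and 30 days drug-free; filled points are replicate 1 and open points replicate 2. At MKI67 and RRM2 the 13 day replicates lie far apart, at 46.7 and 0.204 FPKM and at 43.8 and 0.973 FPKM.

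The drug experiment gave a second look at quizartinib in other libraries, at 10 nM, against DMSO, and as counts. Of its 16430 genes 9764 were called (59.4%), 4770 higher (29.0%) and 4994 lower (30.4%), from 14795190 to 24990476 counts per library. Both experiments measured 13550 genes that could be tested in each. Of 2278 survivor calls among them 2037 were called the same way under 10 nM quizartinib, which is 89.4% of the survivor calls and 23.8% of the 8560 drug calls, and 25 were called the opposite way. The doses, controls and processing differ, so these are side by side values and no difference between the experiments was tested. All 20 mitosis genes, all 20 DNA replication genes, all 16 ribosome biogenesis genes and all 18 sterol and fatty acid genes fell there. SCD was at 66.95 ± 20.8 CPM with 10 nM quizartinib, against 923 ± 386 CPM with DMSO, PIM1 at 10.2 ± 2.83 CPM with 10 nM quizartinib, against 65.8 ± 25.6 CPM with DMSO and IGF1 at 407 ± 30.9 CPM with 10 nM quizartinib, against 13.8 ± 2.79 CPM with DMSO (SD, n = 3 each). MYC fell there, to 328 ± 43.2 CPM with 10 nM quizartinib, against 481 ± 113 CPM with DMSO (SD, n = 3 each; edgeR adjusted p = 0.003999, log2 difference -0.55). The transcript of FLT3 was higher under the drug, at 450.3 ± 0.3904 CPM with 10 nM quizartinib, against 317 ± 23.9 CPM with DMSO (SD, n = 3 each; edgeR adjusted p = 6.12e-05, log2 difference 0.51). BMF was at 151 ± 6.62 CPM with 10 nM quizartinib, against 32.3 ± 1.13 CPM with DMSO (SD, n = 3 each), and BCL2L11, at 27.3 ± 3.16 CPM with 10 nM quizartinib, against 31.2 ± 4.53 CPM with DMSO (SD, n = 3 each), was not called there either.

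**Figure D5:**
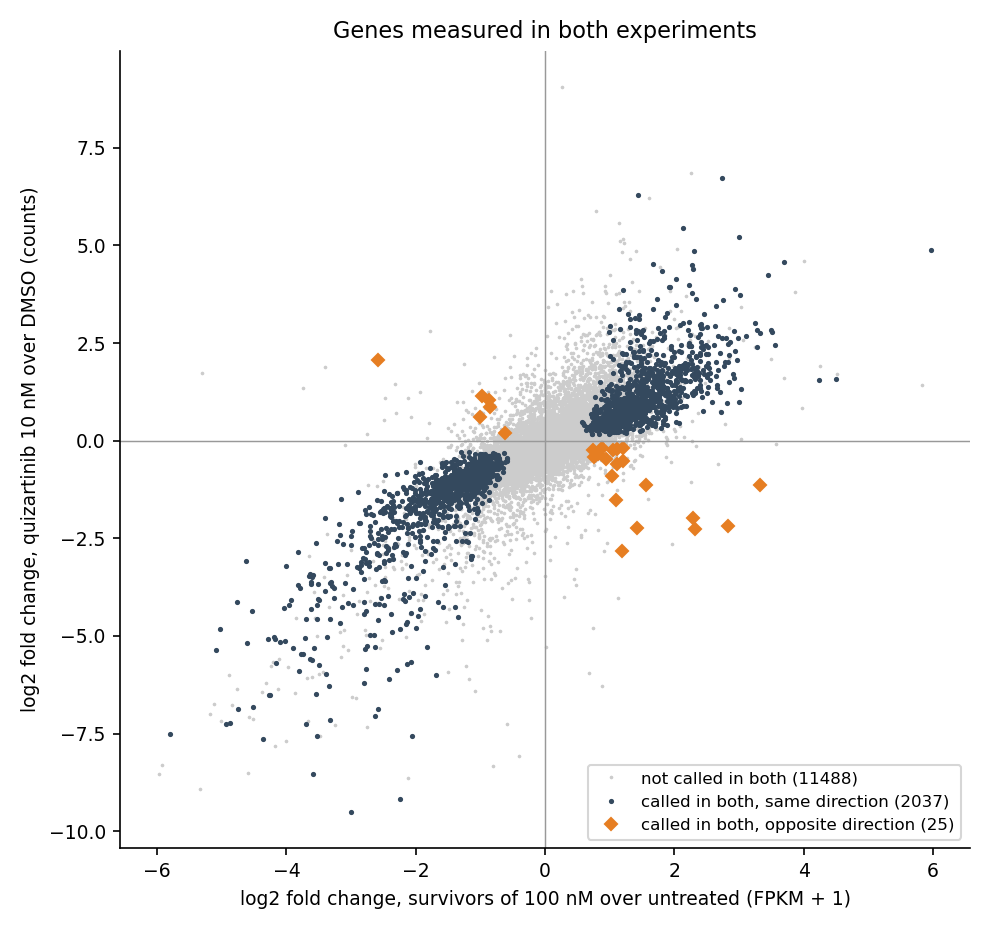
Log2 fold change of survivors over untreated on log2(FPKM + 1) (horizontal) against quizartinib 10 nM over DMSO from counts (vertical) for the 13550 genes tested in both experiments; dark points are called in both and the same way (2037), orange diamonds called in both and opposite (25), and grey points the rest.

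Entries that are not protein-coding are harder to read. Sorted by their length in GENCODE, where one was found, 702 were under 200 bases. Of these 47 were called higher and 34 lower, and 73 of these calls were listed at 0 in a whole group. Of 5016 entries of 200 bases or more 345 were called higher and 117 lower, of which 40 were listed at 0 in a whole group. For an entry of 107 bases 1 fragment is worth 11.7 to 16.4 FPKM in these libraries, so values of short entries rest on few fragments. By the naming rule the 3 highest were MIR6819, a microRNA gene, at 1159 and 608 FPKM in survivors, AC008752.1 at 209.6 and 147 FPKM and AC005513.1 at 154 and 162 FPKM, all listed at 0 in both untreated libraries. The 3 lowest were listed at 0 in both survivor libraries. These were RNU6-583P, a U6 copy, at 299.6 and 321 FPKM in untreated cells, and the small nucleolar RNA entries SNORD54 and snoU2-30 at 427 and 114 and at 145 and 167 FPKM. No fold is given for these 6.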

How the data were processed

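FPKM per gene and library was deposited by the authors for the 8 recovery libraries, per the file headers. TopHat2 2.0.9, Cuffdiff and CASAVA with hg38 are named in the submitters' processing notes, and the scaling between libraries is not given in the sources used here. For the drug experiment the authors deposited whole-number counts per gene, and the notes name STAR 2.7.3, RSEM, CASAVA, edgeR and DESeq2 with GRCh38. Groups and replicate numbers came from sample titles.

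Log2(FPKM + 1) was fitted with limma 3.58.1 (limma-trend, R 4.3.3) over all 8 recovery libraries, for genes that reached 1 FPKM in 2 or more of them. Counts were fitted with edgeR 4.0.16 (TMM, quasi-likelihood) over all 18 drug libraries, and CPM is after TMM. Benjamini-Hochberg adjustment ran over all genes tested, and both scripts were tested on simulated data. Log2 fold changes are given ± SE. An FPKM of 0 may be a failed estimate, so such genes are described as listed at 0. Software besides R was Python 3.11.15, with pandas 2.3.3 for tables and matplotlib 3.10.9 for plots. Positions are those of GENCODE 29, and the depth behind an FPKM value is not given.

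The 4 libraries, the 38 gene lists and the tests were chosen with earlier results of these data known. Named genes are, among called genes without overlap and with a mean of at least 5 FPKM in the higher group, the 12 highest and 12 lowest protein-coding and 3 highest and 3 lowest other genes by log2 fold change. They further include the 6 protein-coding genes of smallest adjusted p, up to 4 members per list with the largest absolute change, and FLT3, MYC, NR3C1, BCL2, MCL1, BCL2L11, CXCR4, MKI67 and CIITA. Alternatives covered the pseudocount, filters, scaling, the libraries in the fit, DESeq2 1.42.0 for the counts, and each replicate left out. The 13 and 30 day libraries entered the filter on low values and the shared estimate of the spread, and their levels are given with no test. Libraries with dexamethasone or 5 days of drug entered only the filter and the fit of the counts. Replicates with the same number did not deviate together (r = 0.07 between survivors and untreated cells), so no pairing was used. Some genes are not reported here.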

Additional observations from a re-analysis of the deposited data

How the results depend on the processing

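The number of called genes depended on the libraries and the filter. Against 2630 genes with 1474 higher, 1156 lower and 2037 called the same way in the drug experiment, no filter on low values gave 727, with 443, 284 and 481. A fit of only the 4 libraries gave 4530, with 2476, 2054 and 3366. Leaving out both 13 day libraries gave 4891, with 2678, 2213 and 3626, and leaving out replicate 2 of 13 days alone, an alternative chosen after seeing the data, gave 4843, with 2639, 2204 and 3597. Leaving out 1 survivor or untreated library gave between 11 and 36 genes, 3 to 23 higher, 8 to 15 lower, and 0 to 2 called the same way. There the lone library is assumed to vary like the other groups. A pseudocount of 0.1, at least 5 FPKM, scaling to protein-coding genes, quantile normalisation, protein-coding genes only and reference chromosomes only gave between 2319 and 3225 genes. With the replicate number as a block 2190 genes were called, 1952 of them among the 2630; correlations of deviations between same-numbered libraries were 0.01 to 0.09, and with 2 libraries per group they do not pair the samples. No named gene that was called changed direction under any alternative. The list medians of erythroid markers, fibroblast markers, glucocorticoid targets, pro-apoptotic BCL2 relatives and stem cell genes changed sign with the scaling. Absolute depth is not given, so no floor could be set for an FPKM of 0.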

Other observations

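The 25 genes called in opposite directions in both experiments were looked at after their values were seen. Among the 19 that were higher in survivors and lower under 10 nM quizartinib are the histone genes HIST1H2AC, HIST1H2BK, H2BFS and HIST3H2A. PRPF8, a core splicing factor, was at 23.9 and 23.8 FPKM in survivors, against 10.8 and 10.2 FPKM in untreated cells. In the drug experiment it was at 713 ± 23.8 CPM with 10 nM quizartinib, against 1076 ± 125 CPM with DMSO (SD, n = 3 each). PRPF8 also has an entry on an alternate haplotype or scaffold, so the reads behind its FPKM can be split or absent. Of the 6 that were lower in survivors, FAM166A was at 3.75 and 2.55 FPKM in survivors, against 22.8 and 24.5 FPKM in untreated cells. It was higher in the drug experiment, at 0.401 ± 0.198 CPM with 10 nM quizartinib, against 0.0893 ± 0.0774 CPM with DMSO (SD, n = 3 each). These values are near the floor, with DMSO replicate 2 at 0 CPM, so this direction rests on few reads. SDHC, a subunit of succinate dehydrogenase, was at 104 and 91.5 FPKM in survivors, against 148 and 152 FPKM in untreated cells, and at 89.9 ± 6.398 CPM with 10 nM quizartinib, against 78.3 ± 1.98 CPM with DMSO (SD, n = 3 each).

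Some genes were near silent in 1 group. Under 0.1 FPKM in both untreated libraries and at 1 FPKM or more in both survivor libraries were 165 entries. Of these 15 were protein-coding, and 99 of the 165 were called. In the other direction there were 108 entries, of which 58 were called and 26 were protein-coding. Among these 26, chosen after their values were seen, were the histone genes HIST1H3B, HIST1H2BL, HIST1H3J, HIST1H2BB, HIST1H2BI, HIST1H2AJ and HIST1H2AB, the factors E2F8 and E2F2, and the metallothionein MT1H. E2F2 was at 0.0954 and 0.0728 FPKM in survivors, against 3.103 and 4.36 FPKM in untreated cells. It was called only with 6 libraries (limma adjusted p = 0.0686, and 0.00512 with 6). MT1H was listed at 0 in both survivor libraries, against 5.87 and 45.5 FPKM in untreated cells. It was called with 8 libraries and not with 6 (limma adjusted p = 0.0498, and 0.0503 with 6).

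Some genes differed between replicates in the same direction in every group, and were picked for this after their values were seen. In 31 genes replicate 1 was at least 2-fold above replicate 2 in all 4 groups of the recovery experiment, and in 32 genes replicate 2 was above replicate 1. How many such genes chance gives was not tested, and over all genes same-numbered replicates did not deviate together. KRT8, a keratin, was at 0.936 and 8.17 FPKM in survivors, against 1.26 and 6.83 FPKM in untreated cells, with replicate 2 the higher in each group. ITGA2B, an integrin chain of platelets, was at 12.3 and 2.23 FPKM in survivors, against 8.93 and 1.096 FPKM in untreated cells, with replicate 1 the higher.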
